A study of Mus musculus with 18 samples.

Results

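Amino acid transporters of the plasma membrane and the branched-chain aminotransferases were followed in CD4+ T cells through 10 genes, of 12393 genes with a probe set that names a single gene. They are Slc7a5, Slc3a2, Slc7a11, Slc1a5, Slc1a4, Slc7a1, Slc38a2, Slc7a6, Bcat1 and Bcat2. Each was chosen by symbol and represented by its probe set of highest mean over the 18 arrays, and together they have 14 probe sets. Of these genes, 8 reached the log2 signal of 4 on at least 3 arrays that was required for testing, as 6873 genes did, and Slc7a11 and Slc7a1 did not.

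A T cell that leaves the resting state must import amino acids to build protein, and the transporters that carry them are switched on by the T cell receptor. Slc7a5 carries leucine and other large neutral amino acids and works only as a dimer with Slc3a2, a glycoprotein that brings it to the cell surface and also serves Slc7a6 and Slc7a11. Inside the cell, Bcat1 in the cytosol and Bcat2 in mitochondria pass the amino group of leucine, isoleucine and valine to alpha-ketoglutarate, which forms glutamate. Several transporter genes are raised by the transcription factor ATF4 when amino acids run short.

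CD4+ T cells of mice 6 to 8 weeks old were isolated by negative selection, to a purity above 95% per the labels, and their RNA was hybridised to Affymetrix 430A 2.0 arrays. Each of the 6 groups has 3 arrays, stated to be independent biologic replicates: wild-type (WT) cells at rest, WT cells stimulated, WT cells with XCT790, WT cells with compound A, cells of ERRa-/- (ERRKO) mice at rest and ERRKO cells stimulated. ERRα, encoded by Esrra, is an orphan nuclear receptor that drives genes of mitochondrial energy metabolism. Resting cells were harvested ex vivo, so they differ from stimulated cells by time in culture too. Antibodies to CD3 and CD28 (10 µg) were the stimulus, given for 12 h. Both inhibitors of ERRα, the inverse agonist XCT790 and a compound known only as compound A, were used at 20 µM. The protocol places both inhibitors in the stimulation, whereas the labels of those 6 arrays read as unstimulated, so both were compared with stimulated and with resting WT cells.

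The values are log2 signals made with GCRMA, and all 18 arrays hold the same sorted values, so a change is always one relative to the rest of the array. Esrra read 5.42 ± 0.15 (SD, n = 3) in resting WT and 4.55 ± 0.18 in resting knockout cells, with 5.37 ± 0.09 and 4.45 ± 0.23 after stimulation (limma adjusted p = 2.16e-04 and 3.31e-04 between the genotypes). The labels do not say whether its probe set lies in the deleted part. All 6 of the measured T cell markers were above log2 4 in every group. Of the CD8 T cell markers, Cd8a was under log2 4 on all arrays and Cd8b1 above it on all, with group means from 5.81 in resting knockout cells to 7.32 with XCT790. A bacterial control RNA (dap, 5' probe set) read 3.99 to 6.38 on the 6 untreated WT arrays and 7.45 to 8.51 on the other 12. Its 3' probe set averaged 11.16 and 11.14 on these arrays, and its middle probe set 9.85 and 10.19. A comparison of knockout or inhibitor arrays with untreated WT arrays cannot be told apart from this difference in the 5' probe set. Stimulated against resting cells of a genotype, and XCT790 against compound A, compare arrays that are all among those 6 or all among the other 12. Whether the 5' probe set differed between the groups of such a comparison was not tested.

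In stimulated WT cells, transcripts of the leucine transporter Slc7a5 were 4.46-fold and those of Bcat1 at least 39.3-fold higher than at rest. The glutamine transporter Slc1a5 was 1.94-fold, Slc7a6 1.96-fold and Slc3a2 1.57-fold higher, and Slc38a2 was 1.73-fold lower. Of the 8 genes tested, 6 rose, where 37.0% of all genes tested rose, and 1 fell, where 38.4% did; Bcat2 did not pass (an adjusted p under 0.05 in limma counts as passing). Their median log2 difference was 0.96, or 0.80 with values under log2 4 set to 4, and that of all genes tested was -0.01. Slc1a4 and Bcat1 entered the test only through groups in which they were high, since no resting array reached log2 4 for either. Transcripts of other cells moved with the same contrast. All 7 macrophage, all 5 B cell, 3 of 4 erythroid and 1 of 6 neutrophil markers tested fell, as did 4 of 6 T cell markers, and the mean log2 signal of the 8 macrophage markers on the array lay between 7.58 and 8.46 at rest and between 2.41 and 2.43 after stimulation. The 6 B cell markers averaged 7.39 to 8.37 and 4.97 to 5.23. In knockout cells all 7 macrophage, 5 B cell, 6 neutrophil and 4 erythroid markers tested fell, and 4 of 6 T cell markers fell and 1 rose. There the macrophage markers averaged 7.98 to 9.54 at rest and 2.34 to 2.90 after stimulation, and the 6 erythroid markers 7.13 to 8.60 and 2.25 to 2.35. The part of these cells in the results was not tested; in such bulk RNA, fewer cells of a type and less RNA per cell cannot be told apart.

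**Figure D1:**
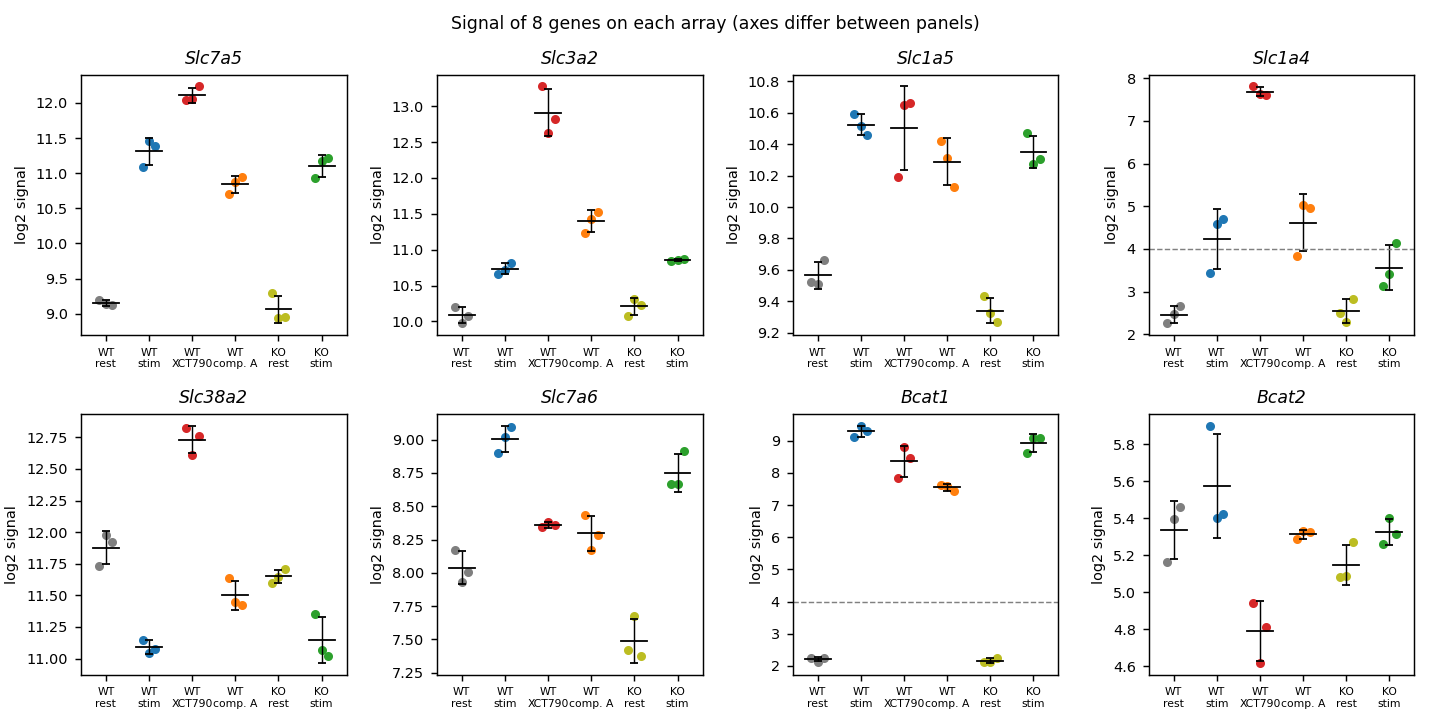
Log2 GCRMA signal (vertical axes, which differ between panels) of the 8 tested genes in the 6 groups, where points are arrays, the bar is the mean and the error bar the SD of 3 arrays, and the dashed line is log2 4. The XCT790 arrays are the highest for Slc7a5, Slc3a2, Slc1a4 and Slc38a2 and the lowest for Bcat2.

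Slc7a5 (gene ID 20539; chr8:121881146-121907686 in GRCm38.p6, the RefSeq build used for all positions here) encodes the leucine-carrying chain. Its log2 signal was 9.20, 9.14 and 9.12 on the resting WT arrays and 11.09, 11.45 and 11.39 on the stimulated ones. The lowest stimulated array lay far above the highest resting array, a log2 difference of 2.16 ± 0.12 (SE; limma adjusted p = 7.38e-10). In knockout cells it read 9.29, 8.94 and 8.96 at rest and 10.93, 11.17 and 11.21 after stimulation, which is 4.12-fold higher (2.04 ± 0.12; adjusted p = 1.56e-09). The genotypes overlapped both at rest and after stimulation.

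XCT790 took Slc7a5 beyond the level of stimulated cells, to 12.04, 12.05 and 12.23, 1.74-fold above stimulated WT cells (0.80 ± 0.12; adjusted p = 3.21e-05). With compound A it read 10.70, 10.88 and 10.95, 1.39-fold below stimulated WT cells (-0.47 ± 0.12; adjusted p = 0.00749), with all 3 arrays under all 3 stimulated WT arrays. Set against stimulated knockout cells, whose control RNA values lay in the same range, compound A arrays overlapped and the difference did not pass (-0.26; adjusted p = 0.115), whereas XCT790 was higher by 1.01 (adjusted p = 3.77e-06). In order of level, XCT790 stood first, apart from the other groups. Stimulated WT, stimulated knockout and compound A cells followed, and of these each overlapped with the next. Both resting groups, which overlapped, lay below all of them.

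Slc3a2 (gene ID 17254; chr19:8706882-8723369), the partner chain of Slc7a5, rose with stimulation and, beyond stimulated WT cells, with both inhibitors. Resting WT arrays read 10.20, 9.98 and 10.07 and stimulated ones 10.66, 10.72 and 10.81, a log2 difference of 0.65 ± 0.13 (adjusted p = 4.37e-04). Knockout cells read 10.07, 10.32 and 10.23 at rest and 10.85, 10.86 and 10.87 after stimulation, a difference of the same size (0.65 ± 0.13; adjusted p = 4.69e-04). With XCT790 the signal was 13.28, 12.63 and 12.83, which is 4.53-fold above stimulated WT cells (2.18 ± 0.13; adjusted p = 9.39e-09). With compound A it was 11.23, 11.43 and 11.53, which is 1.58-fold above them (0.66 ± 0.13; adjusted p = 0.00184). Groups that were neighbours in level did not overlap except the resting ones, and both inhibitor groups were above every untreated array.

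Slc7a6 (gene ID 330836; chr8:106168219-106198714), which exchanges cationic for neutral amino acids and also pairs with Slc3a2, rose with stimulation and was lower with both inhibitors, where Slc3a2 was higher. It read 8.17, 7.93 and 8.01 in resting and 8.90, 9.02 and 9.10 in stimulated WT cells (0.97 ± 0.10; adjusted p = 6.93e-07). Knockout cells read 7.42, 7.68 and 7.37 at rest and 8.67, 8.66 and 8.92 after stimulation, 2.39-fold higher (1.26 ± 0.10; adjusted p = 5.13e-08). The means with inhibitors lay between those of resting and stimulated WT cells, at 8.34, 8.38 and 8.36 with XCT790 (-0.65 ± 0.10 against stimulated WT; adjusted p = 6.42e-05) and 8.44, 8.17 and 8.28 with compound A (-0.71 ± 0.10; adjusted p = 1.82e-04). The other Slc7a6 probe set, 1460541_at, gave the fall with compound A (-0.88; adjusted p = 0.00507) but not with XCT790 (-0.05; adjusted p = 0.851), so the XCT790 difference depends on the probe set.

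Slc7a11 (gene ID 26570; chr3:50364936-50499087), the light chain that imports cystine in exchange for glutamate, read 2.20 to 2.23 on all 18 arrays. The cationic amino acid transporter Slc7a1 (gene ID 11987; chr5:148327410-148399904) read 2.20 to 2.81, and its highest value was XCT790 array 1. Each has a single probe set, which never reached log2 4, so no level or change is given for either.

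Among the neutral amino acid transporters of the Slc1 and Slc38 families, Slc1a5 rose with stimulation, Slc38a2 with XCT790 and Slc1a4 with both. Slc1a5 (gene ID 20514; chr7:16781334-16798274), which carries glutamine, read 9.52, 9.51 and 9.66 in resting and 10.59, 10.52 and 10.46 in stimulated WT cells (0.96 ± 0.12; adjusted p = 2.78e-06). Knockout cells read 9.43, 9.32 and 9.27 at rest and 10.47, 10.28 and 10.31 after stimulation (1.01 ± 0.12; adjusted p = 1.87e-06). With XCT790 the arrays read 10.19, 10.65 and 10.66, a difference of -0.02 with a 95% interval from -0.27 to 0.23 (adjusted p = 0.893), and with compound A 10.42, 10.31 and 10.13, a difference of -0.23 (-0.48 to 0.01; adjusted p = 0.137). Compound A arrays lay under all stimulated WT arrays, and that difference passed in the fit without XCT790 array 1 (adjusted p = 0.0427). In order of level, stimulated WT, XCT790, stimulated knockout and compound A cells each overlapped with the next, and all stood above the resting arrays.

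Slc38a2 (gene ID 67760; chr15:96687392-96699728), a sodium-coupled carrier of small neutral amino acids known to rise when amino acids are withheld, was the gene that fell with stimulation. It read 11.73, 11.97 and 11.93 in resting and 11.15, 11.04 and 11.08 in stimulated WT cells (-0.79 ± 0.10; adjusted p = 3.38e-06). In knockout cells it went from 11.60, 11.64 and 11.71 to 11.35, 11.07 and 11.02, which is 1.42-fold lower (-0.50 ± 0.10; adjusted p = 2.88e-04). XCT790 arrays read 12.83, 12.61 and 12.76, above every resting array as well, 3.12-fold over stimulated WT (1.64 ± 0.10; adjusted p = 7.05e-09) and 1.81-fold over resting WT cells (0.85 ± 0.10; adjusted p = 1.73e-06). Compound A gave 11.63, 11.44 and 11.42, 1.33-fold above stimulated WT (0.41 ± 0.10; adjusted p = 0.00543) and 1.30-fold below resting WT cells (-0.38 ± 0.10; adjusted p = 0.00293). Its XCT790 group was thus the highest of the 6, apart from the rest, and the compound A group overlapped with resting knockout cells.

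Slc1a4 (gene ID 55963; chr11:20302180-20332713), which carries alanine, serine and cysteine, was near or under log2 4 everywhere except with XCT790. It read 2.26, 2.47 and 2.66 in resting WT, 3.43, 4.59 and 4.69 in stimulated WT, 2.50, 2.29 and 2.84 in resting knockout and 3.12, 3.42 and 4.14 in stimulated knockout cells. Compound A arrays gave 3.84, 5.04 and 4.95, and XCT790 arrays 7.81, 7.64 and 7.60. The XCT790 arrays were thus far above all 15 others. XCT790 was at least 9.55-fold above stimulated WT cells (adjusted p = 1.07e-06), and at least 12.8-fold above resting WT cells. The rise with stimulation passed in both genotypes (adjusted p = 3.79e-04 in WT and 0.0188 in knockout cells), but 9 of these 12 arrays were under log2 4, so its size is given only as at least 1.18-fold in WT cells. The knockout call ended without knockout resting array 2 (adjusted p = 0.0643) or knockout stimulated array 3 (0.0978). A further probe set, 1423549_at, read 6.56, 6.31 and 6.39 with XCT790 (adjusted p = 5.64e-13 against stimulated WT cells). It was under log2 4 on the other 15 arrays, so it passed the filter only through XCT790 and bears neither on the size of that rise nor on stimulation. A last one, 1423550_at, stayed under log2 4 on all arrays.

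Promoter sequence was examined because ATF4 acts through an amino acid response element. RefSeq promoter windows of 300 bases were at hand for 8 of the 10 genes, 12 windows in all, and both strands were searched for TGATGNAAN, the response element, CACGTG, an E-box that Myc and Max bind, and TNAAGGTCA, the element of estrogen-related receptors. The response element was found in 2 genes, Slc7a11 and Slc1a4, and in 3.95% of all 32851 promoter windows. The E-box was in none of the 12 and in 7.15% of all, and the receptor element in none and in 1.28% of all. Shown are 100 bases before to 10 after the RefSeq start in the table (1 window a gene, all on the minus strand, GRCm38.p6) for the genes that hold a match and for Slc3a2 and Slc38a2, which rose with XCT790 and hold none here; capitals mark matches.
Slc1a4, chr11:20332704-20332813: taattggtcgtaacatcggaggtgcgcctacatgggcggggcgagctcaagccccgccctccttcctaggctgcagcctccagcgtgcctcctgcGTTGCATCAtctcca
Slc7a11, chr3:50443604-50443713: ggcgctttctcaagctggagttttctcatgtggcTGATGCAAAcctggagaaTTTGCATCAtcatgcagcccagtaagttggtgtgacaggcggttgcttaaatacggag
Slc3a2, chr19:8713888-8713997: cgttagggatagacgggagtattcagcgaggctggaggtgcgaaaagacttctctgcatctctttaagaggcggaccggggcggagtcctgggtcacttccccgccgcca
Slc38a2, chr15:96699719-96699828: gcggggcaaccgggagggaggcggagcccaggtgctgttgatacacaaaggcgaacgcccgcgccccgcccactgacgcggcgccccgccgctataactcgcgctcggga
The Slc1a4 match begins 5 bases before that start, on the opposite strand, and runs across it. The Slc7a11 matches begin 66 and 48 bases before the start, on opposite strands, and do not overlap. Slc7a11 stayed under log2 4 in every group. The windows of Slc3a2 and Slc7a11 lie inside the gene ranges given above, so the upstream ends of those ranges were not searched. A match, or the lack of one, describes the letters of the window only.

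**Figure D2:**
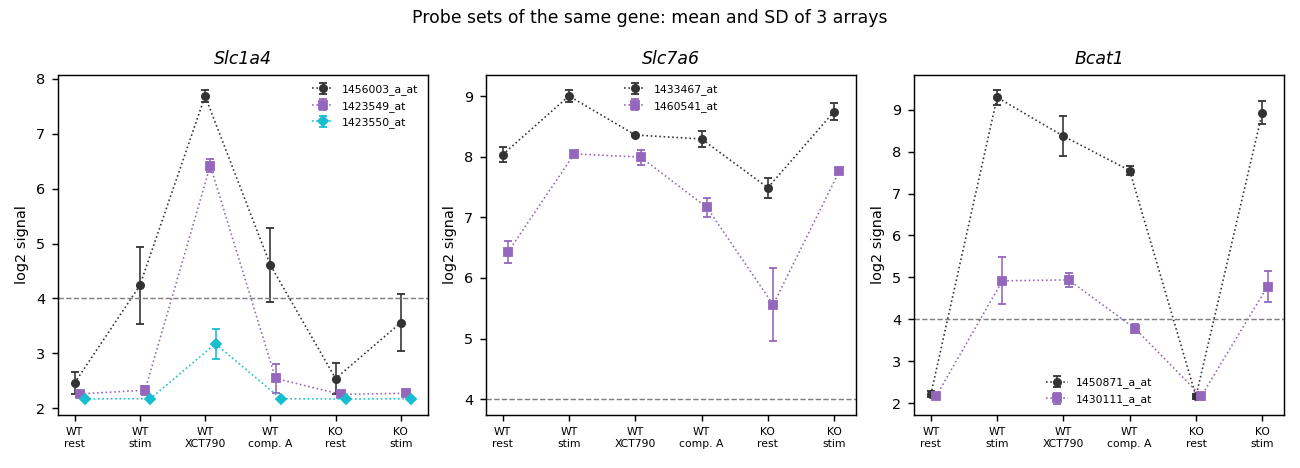
Mean log2 signal and SD of 3 arrays (vertical axes) in the 6 groups for each probe set of Slc1a4, Slc7a6 and Bcat1, the genes with several; the dashed line is log2 4. Both probe sets of Bcat1 are higher in stimulated than in resting cells, 1430111_a_at reading at most 5.33 on any array. With XCT790 the fall from stimulated WT cells passed only for 1450871_a_at, and for Slc7a6 likewise only for 1433467_at.

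The aminotransferases differed from each other. Bcat1 (gene ID 12035; chr6:144993835-145076157) read 2.24, 2.12 and 2.25 in resting and 9.11, 9.46 and 9.32 in stimulated WT cells, at least 39.3-fold (adjusted p = 1.03e-12). All resting arrays were under log2 4. Knockout cells went from 2.13, 2.12 and 2.24 to 8.62, 9.09 and 9.09, at least 30.5-fold (adjusted p = 1.97e-12). Both inhibitors left it well above resting cells, at least 20.7-fold with XCT790 and at least 11.7-fold with compound A. Against stimulated WT cells it was lower with compound A, at 7.63, 7.59 and 7.43, by 3.35-fold (-1.75 ± 0.19; adjusted p = 2.10e-05). With XCT790 it read 7.85, 8.79 and 8.47 and was 1.90-fold lower (-0.92 ± 0.19; adjusted p = 5.54e-04). The other probe set, 1430111_a_at, read 4.28, 5.15 and 5.33 in stimulated WT cells and 3.77, 3.69 and 3.88 with compound A. Its resting arrays were under log2 4 as well. It passed for the rise with stimulation (limma adjusted p = 3.13e-08) and for the fall with compound A (-1.14, adjusted p = 0.00140). With 1 group of each under log2 4, the size of these differences does not measure the change. With XCT790 no difference passed (0.02, adjusted p = 0.953).

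Bcat2 (gene ID 12036; chr7:45568967-45589710), the mitochondrial enzyme, read between 4.62 and 5.90 on all arrays. It was 5.16, 5.39 and 5.46 in resting and 5.90, 5.40 and 5.42 in stimulated WT cells, which overlapped (0.24, 95% interval -0.03 to 0.50; adjusted p = 0.101). The difference was 0.32 and passed without stimulated array 2 (adjusted p = 0.0471), and was 0.073 without stimulated array 1 (0.548). Knockout cells overlapped as well, at 5.08, 5.09 and 5.27 and then 5.26, 5.40 and 5.31. XCT790 arrays read 4.94, 4.62 and 4.81, under every other array, and were 1.72-fold below stimulated WT (-0.78 ± 0.13; adjusted p = 6.92e-05) and 1.46-fold below resting WT cells (-0.55 ± 0.13; adjusted p = 0.00120). Compound A arrays read 5.29, 5.33 and 5.33, and the difference from stimulated WT cells did not pass (-0.26; adjusted p = 0.128).

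**Figure D3:**
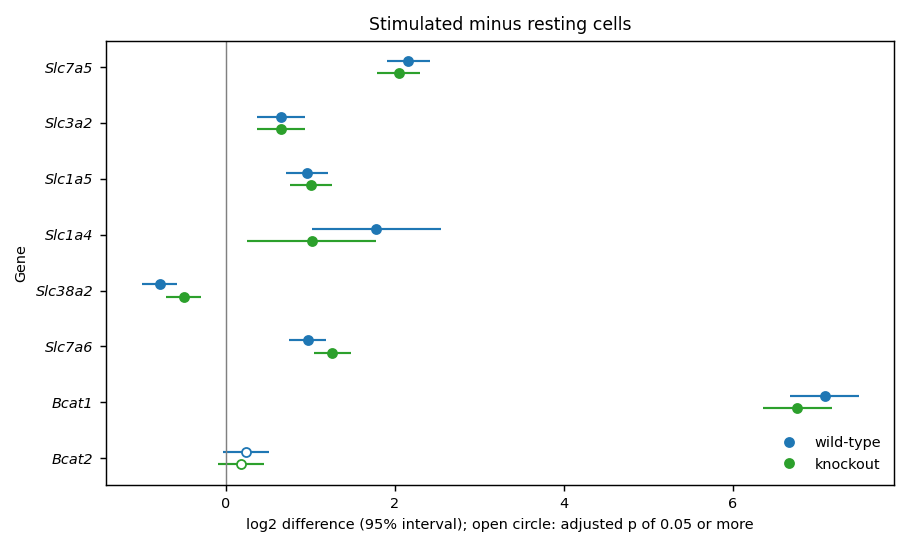
Log2 difference of stimulated minus resting cells (horizontal axis; lines are 95% intervals of the limma fit) for the 8 tested genes in WT and knockout cells, 3 arrays per group, and open circles did not pass. The resting arrays of Bcat1 and Slc1a4 were under log2 4, so the size of their differences is not a measure of the change. Slc38a2 fell in both genotypes, and the intervals of the genotypes overlap for every gene.

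The knockout asks whether ERRα is needed for these genes at rest or for their rise. In stimulated knockout cells the response passed in 7 of the 8 genes, 6 up (37.7% of all genes tested) and 1 down (35.7%). The interaction of genotype and stimulation passed in 0 of the 8 in limma and in 0.902% of all genes tested, and 0 of the 8 had an unadjusted p under 0.05. With the array number as a block, the count over all genes went from 62 to 123 and stayed at 0 for the 8. For Slc7a5 the responses differed by -0.12 with a 95% interval from -0.47 to 0.24, for Slc3a2 by 0.00 (-0.40 to 0.40) and for Slc1a5 by 0.05 (-0.30 to 0.40). For Slc38a2 they differed by 0.29 (-0.01 to 0.58), for Slc7a6 by 0.29 (-0.02 to 0.60) and for Bcat2 by -0.06 (-0.44 to 0.32). The widest intervals were those of Slc1a4, -0.76 (-1.84 to 0.32), and Bcat1, -0.32 (-0.89 to 0.25), whose resting arrays were under log2 4. After stimulation 0 of the 8 passed between the genotypes in limma (2.18% of all genes did), 1 had an unadjusted p under 0.05, Slc7a6 (-0.26; adjusted p = 0.244), and 4 passed with array weights, as did 23.8% of all genes. The arrays did not overlap for 3 genes (32.8% of all genes): Slc3a2 was higher (0.12) and Bcat1 and Bcat2 were lower (-0.36 and -0.25) in knockout cells. The largest difference after stimulation was that of Slc1a4, -0.68 (95% interval -1.44 to 0.09, limma adjusted p = 0.390), with overlapping arrays near or under log2 4. The intervals leave room for differences of the size shown and do not establish that the genotypes were alike.

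At rest, Slc7a6 was 1.46-fold lower in knockout cells (-0.55 ± 0.10; adjusted p = 0.00316), with all 3 arrays below the WT arrays, and it was the 1 gene of 8 to pass, where 12.3% of all genes tested fell and 6.74% rose. Its other probe set also passed (-0.87; adjusted p = 0.0119), and the call ended in a fit on the 2 groups alone (adjusted p = 0.0692). With it, Slc1a5 and Slc38a2 were lower without overlap (3 of the 8, where 27.9% of all genes were), and neither passed (-0.22 and -0.23; adjusted p = 0.182 and 0.109). Transcripts of other blood cells moved with this contrast. All 4 erythroid markers tested and all 6 neutrophil markers tested rose and 3 of 5 B cell markers fell in knockout cells. The 6 erythroid markers on the array averaged 3.30 to 5.67 on WT and 7.13 to 8.60 on knockout arrays, with Hba-a1 under log2 4 on all and Alas2 on the WT arrays. The 7 neutrophil markers averaged 2.78 to 4.76 and 5.74 to 8.44, with Ltf under log2 4 on all and Elane and Camp on the WT arrays. Their part in the result was not tested.

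Cells with the inhibitors were compared with stimulated WT cells, a comparison that cannot be told apart from the control RNA difference given above. Whether the differences come through ERRα was not tested. With XCT790, 4 of the 8 genes rose (29.1% of all genes tested) and 3 fell (36.9%). The risers were Slc7a5, Slc3a2, Slc1a4 and Slc38a2 and the fallers Slc7a6, Bcat1 and Bcat2. For Slc7a6 and Bcat1 the fall did not pass with the other probe set (-0.05 and 0.02; limma adjusted p = 0.851 and 0.953). With compound A, 2 rose (14.5%), Slc3a2 and Slc38a2, and 3 fell (18.7%), Slc7a5, Slc7a6 and Bcat1. T cell markers moved with XCT790: 3 of 6 fell, Cd3g by 1.19, Cd4 by 1.03 and Cd3e by 0.76, and Cd28 rose by 0.47, while with compound A Cd3d rose by 0.29. Of 5 B cell markers Ms4a1 fell with XCT790, by 0.93. Macrophage, neutrophil and erythroid markers had list means of at most 2.52, 2.27 and 2.25 with the inhibitors, under log2 4 as in stimulated WT cells. The part of these genes in the results was not tested. The median log2 difference of the 8 genes was 0.39 with XCT790 and -0.25 with compound A, against -0.06 and -0.03 for all genes tested. Against stimulated knockout cells, whose control RNA values lay in the same range, the same 4 genes were higher and the same 3 lower with XCT790 (31.3% and 33.9% of all genes). With compound A 3 were higher (14.1%), Slc1a4 being added (1.05; limma adjusted p = 0.0433), and Slc7a6 and Bcat1 were lower (12.0%). The Slc1a4 arrays overlapped there, and the stimulated knockout mean was 3.56, under log2 4. The size of that difference does not measure the change.

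**Figure D4:**
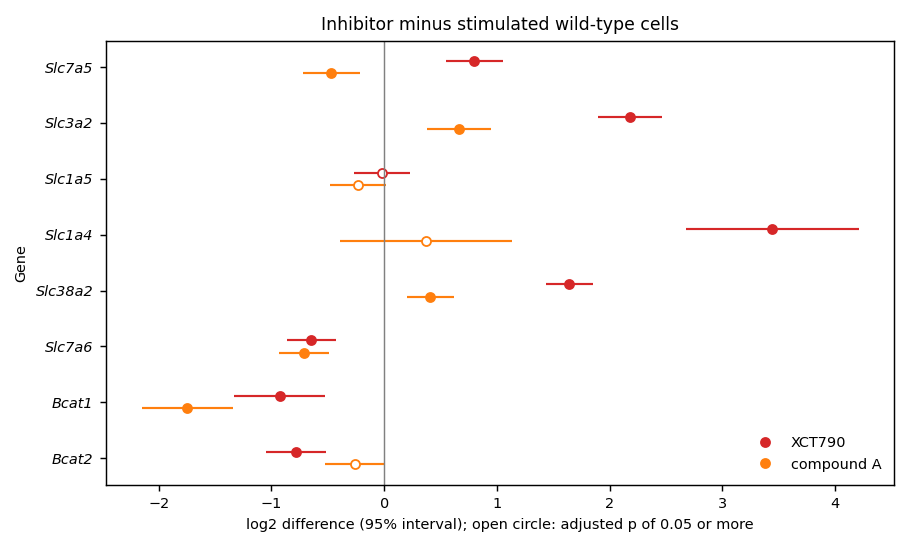
Log2 difference of XCT790 or compound A arrays minus stimulated WT arrays (horizontal axis; lines are 95% intervals of the limma fit) for the 8 tested genes, 3 arrays per group, and open circles did not pass. XCT790 lies to the right for Slc7a5, Slc3a2, Slc1a4 and Slc38a2, and Slc7a5 alone has points that passed on opposite sides of 0.

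The inhibitors, both at 20 µM, were compared directly over the 8 genes, with p-values adjusted over all 6873. XCT790 was higher for Slc3a2 by 2.86-fold (1.52 ± 0.13; adjusted p = 6.06e-07), Slc7a5 by 2.41-fold (1.27 ± 0.12; adjusted p = 1.08e-06), Slc38a2 by 2.35-fold (1.23 ± 0.10; adjusted p = 2.31e-07) and Bcat1 by 1.77-fold (0.82 ± 0.19; adjusted p = 0.00206). Slc1a4 was at least 8.11-fold higher (adjusted p = 7.84e-06). Bcat2 was 1.44-fold lower (-0.52 ± 0.13; adjusted p = 0.00279). These are 5 genes higher (24.8% of all genes tested) and 1 lower (27.8%). Slc1a5 and Slc7a6 did not pass, with differences of 0.21 (95% interval -0.04 to 0.46) and 0.07 (-0.15 to 0.29). For Slc1a5 the difference was 0.37 and passed without XCT790 array 1 (adjusted p = 0.00564), and for Slc7a6 the other probe set gave 0.83 (adjusted p = 0.00367).

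Against resting WT cells, all 8 genes passed with XCT790, 7 up (33.6% of all genes tested) and Bcat2 down (38.3%), and 7 passed with compound A, 6 up (32.6%) and Slc38a2 down (37.1%). Slc7a5 was 7.78-fold and 3.22-fold, Slc3a2 7.10-fold and 2.48-fold, and Slc1a5 1.91-fold and 1.65-fold above rest with XCT790 and compound A. The call for Slc7a6 with compound A (0.26; adjusted p = 0.0367) ended without resting WT array 2 or 3 (0.133 and 0.0879), without compound A array 1 or 3 (0.150 and 0.0663), with the array number as a block (0.0501) and in a fit on the 2 groups alone (0.0556). Its XCT790 call (0.32; adjusted p = 0.0110) ended without resting WT array 2 (0.0504). The inhibitor comparisons with stimulated and with resting WT cells share the inhibitor arrays.

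Other genes of amino acid handling were counted from lists, to be read beside all genes tested, of which 37.0% rose and 38.4% fell with stimulation (median -0.01) and 29.1% and 36.9% with XCT790 (median -0.06). With compound A 14.5% rose and 18.7% fell (median -0.03), and in knockout cells 37.7% rose and 35.7% fell with stimulation. Of 12 regulators of transporter genes, 5 rose and 4 fell with stimulation of WT cells. Myc, which drives growth of activated T cells, was 4.77-fold higher, and Hif1a, the hypoxia factor, 2.09-fold. Nfe2l2, the antioxidant factor, was 3.19-fold and Eif2ak3, a kinase of the endoplasmic reticulum stress response, 3.11-fold lower. With XCT790 10 of the 12 rose and 1 fell against stimulated WT cells (list median 1.55), and with compound A 2 rose and 1 fell (0.06). Myc fell with XCT790 by 1.05 and with compound A by 0.45 on the log2 scale (adjusted p = 6.86e-07 and 0.00455). Chosen after their values were seen, Atf4 was 2.21-fold, Ddit3, a factor of the stress response, 9.16-fold and Trib3, a target and brake of ATF4, at least 38.8-fold higher with XCT790. Atf4 read 11.98, 12.00 and 11.99 in stimulated WT cells, 13.29, 12.99 and 13.12 with XCT790 and 11.89, 11.99 and 12.02 with compound A. Of these the XCT790 arrays stood apart, and compound A overlapped with stimulated cells (-0.02; adjusted p = 0.884). The 2 regulators that rose with compound A were Ddit3, 2.24-fold, and Trib3, at least 1.22-fold (adjusted p = 0.0107). Trib3 reached log2 4 only on XCT790 and compound A arrays and so entered the test through them.

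Of 30 other amino acid transporters, 20 were on the array and 5 were tested. Slc38a1, a glutamine carrier, was 1.84-fold and the taurine transporter Slc6a6 1.79-fold higher in stimulated than in resting WT cells, and both rose in knockout cells too (0.77 and 0.50). Slc43a3 and Slc38a10 did not pass in WT cells (0.18 and -0.16; adjusted p = 0.721 and 0.124) and fell in knockout cells (-1.82 and -0.36). With XCT790 3 of the 5 rose against stimulated WT cells (list median 0.48): Slc38a1 by 0.48, Slc6a6 by 0.77 and Slc7a3, a cationic amino acid transporter named after its value was seen. Slc7a3 read 5.74, 5.84 and 4.89 with XCT790 and under log2 4 on the other 15 arrays, at least 2.82-fold higher (adjusted p = 5.10e-09). It entered the test only through the XCT790 arrays, so its place among the 3 was fixed by the filter. With compound A only Slc6a6 of the 5 rose, by 0.75. Slc6a6 and Slc43a3, which imports purine bases, were higher in resting knockout than in resting WT cells (0.82 and 1.82, limma adjusted p = 6.19e-04 and 0.0111). Slc43a3 read 8.64, 6.33 and 7.17 on the resting knockout arrays. Erythroid and neutrophil markers rose in this contrast as well, and their part was not tested.

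Downstream of the aminotransferases, 18 genes of branched-chain amino acid breakdown were tested. In stimulated WT cells 5 rose and 4 fell, with the leucine enzyme Ivd 2.46-fold and the valine enzyme Aldh6a1 at least 4.94-fold lower, and Dld, a subunit shared by several dehydrogenase complexes, 2.10-fold and Mccc1 1.57-fold higher. With XCT790 13 of the 18 fell and 3 rose against stimulated WT cells, with a list median of -0.74, while compound A gave 2 falls, Auh and Mccc1, and 1 rise, Ivd, and a median of -0.08. XCT790 was lower than compound A in 10 of the 18 and higher in 1, where 27.8% of all genes were lower and 24.8% higher. Mccc1 was 2.51-fold lower with XCT790, and the 3 that rose were Ivd (1.58-fold), Aldh6a1 and Acadsb. Acadsb and Auh were chosen after their values were seen, as were Pcca and Bckdhb. Pcca, of propionyl-CoA carboxylase, was 3.49-fold and Bckdhb, of the branched-chain ketoacid dehydrogenase, at least 2.42-fold lower with XCT790.

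Among 11 enzymes of glutamine and glutamate, 5 rose and 2 fell with stimulation, led by the aspartate aminotransferase Got1 (6.98-fold) and the serine pathway aminotransferase Psat1 (5.78-fold), with Glul, glutamine synthetase, 1.85-fold and Oat 1.40-fold lower. With XCT790 5 rose and 2 fell against stimulated WT cells (list median 0.20), and with compound A 1 rose. That 1 was the alanine aminotransferase Gpt2, chosen after its value was seen, at least 1.39-fold higher with overlapping arrays (adjusted p = 0.00670). With XCT790 Gpt2 read 7.46 on average against 3.31 in stimulated WT cells, all of whose arrays were under log2 4 (adjusted p = 2.76e-08). It reached log2 4 only on inhibitor arrays and so entered the test through them. Asparagine synthetase, Asns, chosen likewise, was 3.37-fold higher with XCT790 than in stimulated WT cells (limma adjusted p = 0.00957). It was also higher in resting knockout than resting WT cells (2.92, adjusted p = 0.00279), at 9.64, 7.95 and 8.01 on the knockout arrays. Erythroid and neutrophil markers rose in that contrast too, and their part was not tested. Of 22 genes of amino acid sensing by mTORC1, the growth kinase complex, 6 rose and 10 fell with stimulation. Ddit4, an inhibitor of the complex, was 13.2-fold and Sesn1, also an inhibitor, 6.38-fold lower. The lysosomal anchor subunits Lamtor2 and Lamtor4 fell by 0.85 and 0.76 on the log2 scale. With XCT790 11 rose and 5 fell against stimulated WT cells (list median 0.20), with Ddit4 4.66-fold and Sesn1 1.48-fold higher, and with compound A 4 rose and 2 fell. Sesn2, a leucine sensor chosen after its value was seen, was 4.73-fold higher with XCT790 and did not pass with compound A (-0.22; adjusted p = 0.137). In stimulated knockout cells there were 6 regulators up and 4 down, 5 breakdown genes up and 4 down, 5 glutamine and glutamate enzymes up and 5 down, and 7 sensing genes up and 6 down from rest. At rest, knockout cells had 1 regulator, 2 breakdown genes, 1 glutamine or glutamate enzyme and 4 sensing genes lower, and 1 breakdown gene, 4 such enzymes and 1 sensing gene higher than WT cells (6.74% of all genes rose and 12.3% fell). After stimulation none of the listed genes passed between the genotypes in limma, where 2.18% of all genes tested did. The interaction passed for 1, the sensor gene Sesn3, named after its value was seen (0.74; limma adjusted p = 0.0385), and for 0.902% of all genes tested.

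The tested genes whose log2 values ran most like each member over the 18 arrays are given by Pearson's r, as a description over arrays that share their 6 groups. For Slc7a5 they were the mitochondrial chaperone Hspa9 (0.997) and the aminoacyl-tRNA synthetases Eprs (0.994) and Iars (0.993). For Slc3a2 they were Stk40 (0.986), Tent2 (0.981) and Gpt2 (0.979), and for Slc1a4 Ahctf1 (0.985), Gpt2 (0.980) and Ubr2 (0.979). Slc38a2 ran with the histone demethylase Kdm3a (0.988), the copper transporter Atp7a (0.978) and Oser1 (0.978). Slc1a5 ran with Thap4 (0.967), Utp20 (0.966) and Bcl2l1 (0.965), and Slc7a6 with Smad5 (0.966), Sinhcaf (0.966) and Qtrt1 (0.960). Bcat1 ran with the cytokine Mif (0.997), Wdr36 (0.994) and Elp5 (0.994). The closest to Bcat2, Trmt2a (0.879), Ubl7 (0.876) and Brms1 (0.863), were less alike.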

How the data were processed

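The deposited table holds log2 signals of 22690 probe sets, which the authors made with GCRMA per the submitters' processing notes. Its version and later steps are not given in the sources used here, and the log base is GCRMA's convention. The identical sorted values (1.83 to 15.4) on all arrays mean that arrays were quantile normalized, which can hide a global shift. Left out were 64 control probe sets, 1555 with no gene and 691 with several. Groups come from the sample titles.

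All 10 comparisons were fitted on 18 arrays with limma 3.58.1 (R 4.3.3), with 1 mean per group and a constant prior (residual degrees of freedom 12, prior 2.22). Tests were two-sided and adjusted by Benjamini-Hochberg over 6873 genes. The number of arrays limits the precision. Arrays of the lower group under log2 4 were set to 4 for folds, written "at least". The fit was tested on simulated data. Genes named are the 10 members, Esrra, up to 4 genes per list of smallest adjusted p in stimulated against resting WT cells, and the 3 nearest by correlation, apart from those marked as chosen later. The members and lists were chosen with earlier results of these data known. Figures used matplotlib 3.10.9 (Python 3.11.15).

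Deviations from group means were correlated between arrays of the same number, to learn whether numbers pair arrays. All 3 correlations were above 0.1 for knockout stimulated against resting (0.336, 0.266 and 0.238), knockout against WT at rest (0.645, 0.406 and 0.254) and stimulated (0.442, 0.384 and 0.148), and XCT790 (0.253, 0.150 and 0.172) and compound A (0.474, 0.398 and 0.287) against stimulated WT. No label ties a number to a day or an animal. Alternatives were the filter, scaling, probe set, block, samples, prior, weights, a 2-fold limit, the reference group and leaving out each array.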

Additional observations from a re-analysis of the deposited data

Results flagged for a closer look

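Slc7a5 was the gene of the 8 tested for which the inhibitors had opposite changes that both passed: against stimulated WT cells it was higher with XCT790 (0.80) and lower with compound A (-0.47), and the direct difference of 1.27 ± 0.12 passed (limma adjusted p = 1.08e-06; 3 of 3 XCT790 arrays above 3 of 3 compound A arrays). The compound A change did not pass against stimulated knockout cells.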

How the results depend on the processing

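Of 80 log2 differences (8 genes in 10 comparisons), 48 passed. Of these, 40 kept direction and call in every alternative except the 2-fold limit and other probe sets, and 37 did with other probe sets included. The 3 calls of Bcat2 with XCT790 kept theirs where tested, but with a floor of log2 6 Bcat2 was not tested. A limma test against a 2-fold limit kept 16, leaving 2 of 7 genes for stimulation in WT cells and 2 of 7 in knockout cells, 3 of 7 for XCT790 and 0 of 5 for compound A against stimulated WT cells, 2 of 6 for XCT790 against compound A, 4 of 8 for XCT790 and 3 of 7 for compound A against rest, and 0 for knockout against WT cells at rest. The limit kept 21.3%, 18.3%, 7.59%, 0.495%, 2.68%, 19.7%, 14.4% and 0.407% of all genes in these comparisons, in the same order. The 1 gene that passed between the genotypes at rest became 0 in a fit on those groups alone (2.56% of all genes) and 3 with array weights (34.6%, against 19.0% without), which also gave 4 after stimulation (23.8%, against 2.18% and 0 genes without). In the interaction array weights called 17.8% of all genes and 0 of the 8. The estimate of these weights stopped before it converged. With the array number as a replicate block, 1 call changed, Slc7a6 in compound A against resting WT cells (limma adjusted p = 0.0501). Correlations between arrays of the same number were 0.140, 0.020 and 0.076 in that comparison. No member count moved by over 1.5 times with the block.

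The differences that changed sign had not passed in the main fit, apart from Bcat1 in XCT790 against stimulated WT cells. That of Bcat1 went from -0.92 to 0.022 with its other probe set. Slc1a5 in that comparison went from -0.022 to 0.029 with a common median and 0.15 against stimulated knockout cells. It ranged from -0.10 to 0.13 when 1 array was left out. With array weights it was 0.14 and passed (limma adjusted p = 0.0286), as did 81.7% of all genes. Those weights also called Slc1a5 in compound A against stimulated WT cells (-0.26, adjusted p = 0.00465) and in XCT790 against compound A (0.40, adjusted p = 9.62e-06). They called 58.9% and 73.9% of all genes there. Bcat2 in compound A against resting cells was 0.048 with a common median (-0.11 to 0.037 leaving out 1 array). Array weights gave -0.0096 for Slc38a2 between stimulated genotypes (-0.046 to 0.12 leaving out 1 array) and 0.075 for the interaction of Bcat2 (-0.15 to 0.10). Slc1a4 between resting genotypes was -0.0086 with its other probe set (-0.063 to 0.21 leaving out 1 array). Slc1a4 in compound A against stimulated WT cells was 0.37 in the main fit and ranged from -0.030 to 0.76 leaving out 1 array. The interaction of Slc1a5 ranged from -0.0072 to 0.10 in the same way. The causes were not tested. With 3 arrays a group and signals near log2 4, the size of changes in Slc1a4 is poorly bounded.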
